A study of Mus musculus with 3 samples.

Results

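The respiratory chain complexes and the ATP synthase of the mitochondrial inner membrane were followed in bone marrow RNA of castrated mice given testosterone, relative to placebo. Members were the genes with a value on all 3 arrays whose symbol begins with Nduf, Uqcr, Atp5 or Cox4 to Cox8, or is Sdha, Sdhb, Sdhc, Sdhd, Cyc1 or Cycs. They numbered 52 of 3462 genes measured: 18 of complex I, 2 of complex II, 9 of complex III with cytochrome c, 10 of complex IV and 13 of complex V. The gene Ndufa4, named for complex I, was counted in complex IV, where its protein was later placed. The only other gene of the rule with spots of its own, the complex I gene Ndufv3, had no value on any array.

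The mice were C57BL/6, castrated at 7 weeks and 17 weeks old by the label. Mice of the testosterone group had carried a slow-release pellet of 12.5 mg testosterone, made to last 60 days, for 4 weeks, and mice of the placebo group, which share the castration in the study's design, a placebo pellet. Each of 3 two-colour arrays, T1, T2 and T3, compared the RNA of 1 testosterone mouse with that of its matched placebo mouse (n = 3 pairs), which makes each value a ratio between paired mice. The dyes were alternated, so that testosterone RNA carried Cy3 on T2 and Cy5 on the other two arrays. The label names the tissue as bone marrow, whereas the protocol extracts RNA from pulverised bone, taken from femur, tibia and humerus. Ratios give no absolute level, so the tissue could not be checked from marker abundance.

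The deposited values are taken here as log2 ratios with testosterone in the numerator, and a negative value is lower with testosterone. This direction is the likely one. It follows the design text, in which testosterone is called the experimental channel, and no deposited column states it. The base of the logarithm is likewise not stated and was taken as 2 from the range covered (-3.37 to 4.47). The median over all genes tested was -0.038 (T1), -0.12 (T2) and -0.055 (T3), and this level stands beside each shift given here. Unlabelled runs of 3 values follow the order T1, T2, T3. Over all genes T2 and T3 correlated more closely (r = 0.73) than T1 did with T2 (r = 0.43) or with T3 (r = 0.50). With the deposited signs these correlations were all positive, and B-lineage markers had medians of -2.27 (T1), -2.29 (T2) and -1.81 (T3). The deposited sign of T2 thus runs with that of the other arrays, and the inferred part is the direction shared by all 3. In marrow, a lower ratio from fewer cells of a type and one from less RNA per cell cannot be told apart.

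Complexes I and II pass electrons from NADH and succinate to ubiquinone, complex III passes them on to cytochrome c, and complex IV hands them to oxygen. Complexes I, III and IV pump protons, and complex V, the ATP synthase, uses the proton gradient to make ATP. All of the members here are nuclear genes, whose products assemble with a few subunits encoded in mitochondrial DNA. In marrow, erythroid precursors and proliferating lymphoid progenitors depend on this machinery, whereas mature neutrophils rely mostly on glycolysis.

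Of the 52 genes, 1 was lower with testosterone, 0 were higher and 51 did not pass (limma, Benjamini-Hochberg adjusted p under 0.05 over all genes tested). Over all 3462 genes the same rule called 3.24% lower and 1.68% higher, 4.91% in all. At an unadjusted p under 0.05, 8 of the 52 (15.4%) were lower, against 16.1% of all genes, and 0 were higher, against 12.0% of all genes. The gene that fell was Cox7a2l, and the next were Atp5a1 and Atp5g2. The share of lower genes was thus near that among genes at large at both thresholds.

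The signs were more uniform than the calls. Of the 52 genes, 49 had a mean below 0 (94.2%, against 62.4% of all genes), and 32 were below 0 on all 3 arrays (61.5%, against 33.9% of all genes). By array, 51 of 52 were below 0 on T1 (against 55.8% of all genes), 43 on T2 (63.2%) and 36 on T3 (59.6%). Cox6c alone was above 0 on all 3 arrays (1 of 52, against 18.1% of all genes). Among the remaining 19 genes of mixed sign, 11 were above 0 on T3 only, 4 on T2 only and 0 on T1 only, and 4 were below 0 on T1 only. Counted against the median of all genes on each array, 22 of the 52 lay lower on all 3 arrays (42.3%, against 23.7% of all genes). Means mostly below 0 were not particular to the complexes. They made up 97.7% of 43 cytosolic ribosomal protein genes, 92.0% of 25 mitochondrial ribosomal protein genes and 97.1% of 34 proteasome genes. Below 0 on all 3 arrays were 44.2%, 48.0% and 79.4% of these families, which were chosen after the data were seen.

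The 3 mouse pairs differed in how far the complexes were shifted. On T1 the median of the 52 genes was -0.22, against -0.038 over all genes, and 49 of 52 lay below the median of all genes. On T2 it was -0.20, against -0.12 over all genes, and 37 of 52 lay below. On T3 it was -0.057, against -0.055 over all genes, and 26 of 52 lay below, so on that array the complexes had the level of genes at large. The 52 genes varied less among themselves than genes at large did, with a standard deviation of 0.12 against 0.31 on T1, 0.20 against 0.44 on T2 and 0.13 against 0.31 on T3. Other families also varied less than genes at large. The standard deviation was 0.13, 0.22 and 0.12 for cytosolic ribosomal protein genes and 0.13, 0.21 and 0.18 for proteasome genes. For mitochondrial ribosomal protein genes it was 0.21, 0.19 and 0.18. The values of the 52 genes were only loosely correlated between pairs (Pearson r = 0.19 for T1 with T2, 0.30 for T1 with T3 and 0.28 for T2 with T3). For their order the rank correlations (Spearman) were 0.076, 0.21 and 0.33. The 52 genes share the arrays and their normalization and are not independent.

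**Figure D1:**
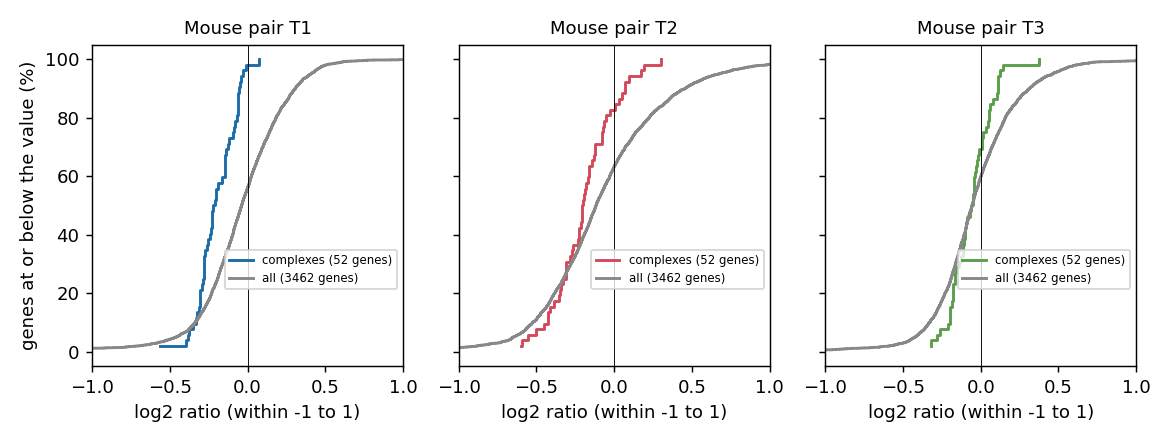
Cumulative distributions of the log2 ratio of testosterone over placebo (x axis, shown from -1 to 1) for the 52 genes of the complexes (coloured) and all 3462 genes (grey), 1 panel for each mouse pair, with the y axis giving the percentage of genes at or below each value. The coloured curve lies well left of the grey one on T1 (medians -0.22 and -0.038), less so on T2 (-0.20 and -0.12), and crosses it near the median on T3 (-0.057 and -0.055).

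Cox7a2l encodes a relative of the complex IV subunit Cox7a2 that joins complex IV to complex III in supercomplexes, and C57BL/6 mice are known to carry a short form of it. Its ratios were -0.56 (T1), -0.60 (T2) and -0.32 (T3). All 3 lay well below the median of all genes, and the mean of -0.49 ± 0.15 (SD, n = 3) made it 1.41-fold lower (95% interval of the mean -0.74 to -0.25, limma adjusted p = 0.0467). It rests on 2 spots carrying the same sequence accession. The first read -0.59, -0.46 and -0.12 on T1, T2 and T3, and did not pass when each spot was tested alone (limma adjusted p = 0.0894). The second read -0.54, -0.73 and -0.52 and passed (limma adjusted p = 0.0246). The spots were close on T1 and apart by 0.40 on T3. It no longer passed when T3 was left out (limma adjusted p = 0.243), when T2 was left out (adjusted p = 0.227) or when each array was centred on its median (adjusted p = 0.0613), and with the sign of T2 turned the mean was -0.096.

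Atp5a1 and Atp5g2 came closest after it, both in complex V. Atp5a1, the alpha subunit of the catalytic head, had -0.33, -0.45 and -0.32 on T1, T2 and T3, a mean of -0.37 ± 0.07 (SD, n = 3; 1.29-fold lower; limma adjusted p = 0.0671). Atp5g2, a precursor of the membrane ring subunit c that drives rotation, had -0.30, -0.34 and -0.26, a mean of -0.30 ± 0.04 (1.23-fold lower, limma adjusted p = 0.0992). Both were below 0 on all 3 arrays with a narrow spread, and neither passed. Without T1, Atp5a1 did pass (limma adjusted p = 0.0476). That fit called 623 of 3462 genes, against 170 with all arrays. Atp5a1 did not pass without T2 (limma adjusted p = 0.264) or without T3 (adjusted p = 0.293).

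Stretches of promoter are shown for 3 members, namely the gene that was lower (Cox7a2l), one of low mean that varied little between pairs (Atp5g2) and one whose pairs disagreed (Cox6a1), to set the sequences beside the responses. Each line gives the 180 bases before the annotated start, 5′ to 3′ on the strand of the gene, from RefSeq on GRCm38.p6, at chr17:83514334-83514513 (minus strand) for Cox7a2l, chr15:102671048-102671227 (minus strand) for Atp5g2 and chr5:115348959-115349138 (minus strand) for Cox6a1. Capitals mark the searched letters described after the sequences.
Cox7a2l: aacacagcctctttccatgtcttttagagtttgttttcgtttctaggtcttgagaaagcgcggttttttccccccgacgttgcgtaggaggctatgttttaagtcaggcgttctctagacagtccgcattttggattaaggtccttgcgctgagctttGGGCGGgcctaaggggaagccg
Atp5g2: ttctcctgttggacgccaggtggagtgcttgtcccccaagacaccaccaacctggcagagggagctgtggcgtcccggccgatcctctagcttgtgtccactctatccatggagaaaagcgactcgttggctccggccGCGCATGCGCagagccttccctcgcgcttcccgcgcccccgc
Cox6a1: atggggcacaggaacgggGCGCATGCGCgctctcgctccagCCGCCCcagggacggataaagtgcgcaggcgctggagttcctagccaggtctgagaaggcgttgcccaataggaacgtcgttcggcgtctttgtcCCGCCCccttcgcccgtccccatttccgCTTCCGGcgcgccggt
Cox7a2l carries a GC box whose first base lies 22 bases before the start. Atp5g2 carries the NRF1 core 42 bases before the start. Cox6a1 carries the NRF1 core at 162 bases, GC boxes on the other strand at 139 and 44 bases and the ETS core on the other strand at 16 bases, and no motifs overlapped in these stretches.

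Motifs were searched on both strands of windows running from 250 bases before to 50 bases after the start. They were the core of NRF1, an activator of many respiratory chain genes (GCGCA followed directly by TGCGC, which reads the same on both strands), the ETS core bound by GABP (CCGGAAG), the YY1 core (AAGATGGC) and the GC box of Sp1 (GGGCGG). Windows were found for 42 of the 52 genes, and Atp5a1, Atp5mpl, Cox4i1, Cox6c, Cyc1, Ndufa2, Ndufb9, Sdhc, Uqcrb and Uqcrq had no entry. The NRF1 core lay in 3 of 42 (7.14%: Atp5g2, Cox6a1 and Uqcrc1), against 2.29% of 2841 tested genes with a window and 1.07% of 27025 genes in the table. The YY1 core lay in 6 (14.3%), against 5.88% of tested genes and 3.19% of the table, and the ETS core in 11 (26.2%), against 21.8% and 9.93%. The GC box lay in 17 (40.5%), against 69.3% of tested genes and 38.2% of the table. The 3 holders of the NRF1 core had different means, -0.30 for Atp5g2, 0.0023 for Cox6a1 and -0.098 for Uqcrc1.

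Complex I takes electrons from NADH and is the largest complex of the chain. On T1 all 18 of its measured genes were below 0 (against 55.8% of all genes), as were 16 on T2 (63.2%) and 13 on T3 (59.6%). On every array 13 of 18 were below 0 (72.2%, against 33.9% of all genes). Its median was -0.18 (T1), -0.22 (T2) and -0.12 (T3) (mean of the medians -0.17 ± 0.05, SD, n = 3). Its difference from the median of all genes was -0.14 (T1), -0.11 (T2) and -0.064 (T3) (mean -0.10 ± 0.04), so the median of complex I lay below that of genes at large on every array. No gene of complex I passed (limma), and 4 of 18 (22.2%) were lower at an unadjusted p under 0.05, against 16.1% of all genes.

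In the peripheral arm, which holds the NADH site and the iron-sulfur clusters, 7 genes had medians of -0.23 (T1), -0.22 (T2) and -0.18 (T3). Ndufv1, the flavoprotein that binds NADH, had -0.23, -0.27 and -0.20 (mean -0.23 ± 0.04, SD, n = 3, limma adjusted p = 0.164). Ndufa9, an accessory subunit near the ubiquinone site, had -0.40, -0.19 and -0.18 (mean -0.25 ± 0.12, adjusted p = 0.158). Ndufv1 thus varied little between pairs, and Ndufa9 was lowest on T1. The accessory subunit Ndufa7 was lowest on T2, at -0.56, with -0.12 on T1 and -0.11 on T3 (mean -0.26 ± 0.25). Ndufs4, whose loss in mice serves as a model of Leigh syndrome, was lowest on T3, with -0.054, -0.22 and -0.28 (mean -0.18 ± 0.12). The accessory subunits Ndufa6 (mean -0.18 ± 0.15) and Ndufa2 (mean -0.15 ± 0.14) were close to it, with Ndufa2 at 0.010 on T3. Ndufa5 was the single complex I gene with a mean above 0 (0.021 ± 0.055), at -0.043 (T1), 0.052 (T2) and 0.054 (T3).

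In the membrane arm, which pumps protons, 11 genes had medians of -0.14 (T1), -0.27 (T2) and -0.10 (T3). Ndufa10, an accessory subunit with the fold of a nucleoside kinase, had the lowest mean of complex I, with -0.29, -0.50 and -0.14 (mean -0.31 ± 0.18, SD, n = 3, limma adjusted p = 0.119). Its 2 spots differed by at most 0.006 on any array. The X-linked Ndufb11 had -0.27, -0.33 and -0.17 (mean -0.26 ± 0.08, adjusted p = 0.145), below 0 at both of its spots on every array. Other accessory subunits were Ndufa13, also known as GRIM-19 (mean -0.21 ± 0.14), Ndufb7 (-0.19 ± 0.06), Ndufs5 (-0.18 ± 0.11), Ndufb10 (-0.14 ± 0.11), Ndufb4 (-0.12 ± 0.02) and Ndufa3 (-0.085 ± 0.065), each below 0 on all 3 arrays. For Ndufb10 the value on T3 (-0.013) averages spots of opposite sign, at -0.18 and 0.16. The pairs disagreed for Ndufb5, with -0.095 (T1), -0.43 (T2) and 0.37 (T3), the widest spread of the 52 genes (mean -0.050 ± 0.40). They disagreed as well for the X-linked Ndufa1, at -0.28, 0.072 and 0.11, and for Ndufb9, at -0.061, -0.27 and 0.11.

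**Figure D2:**
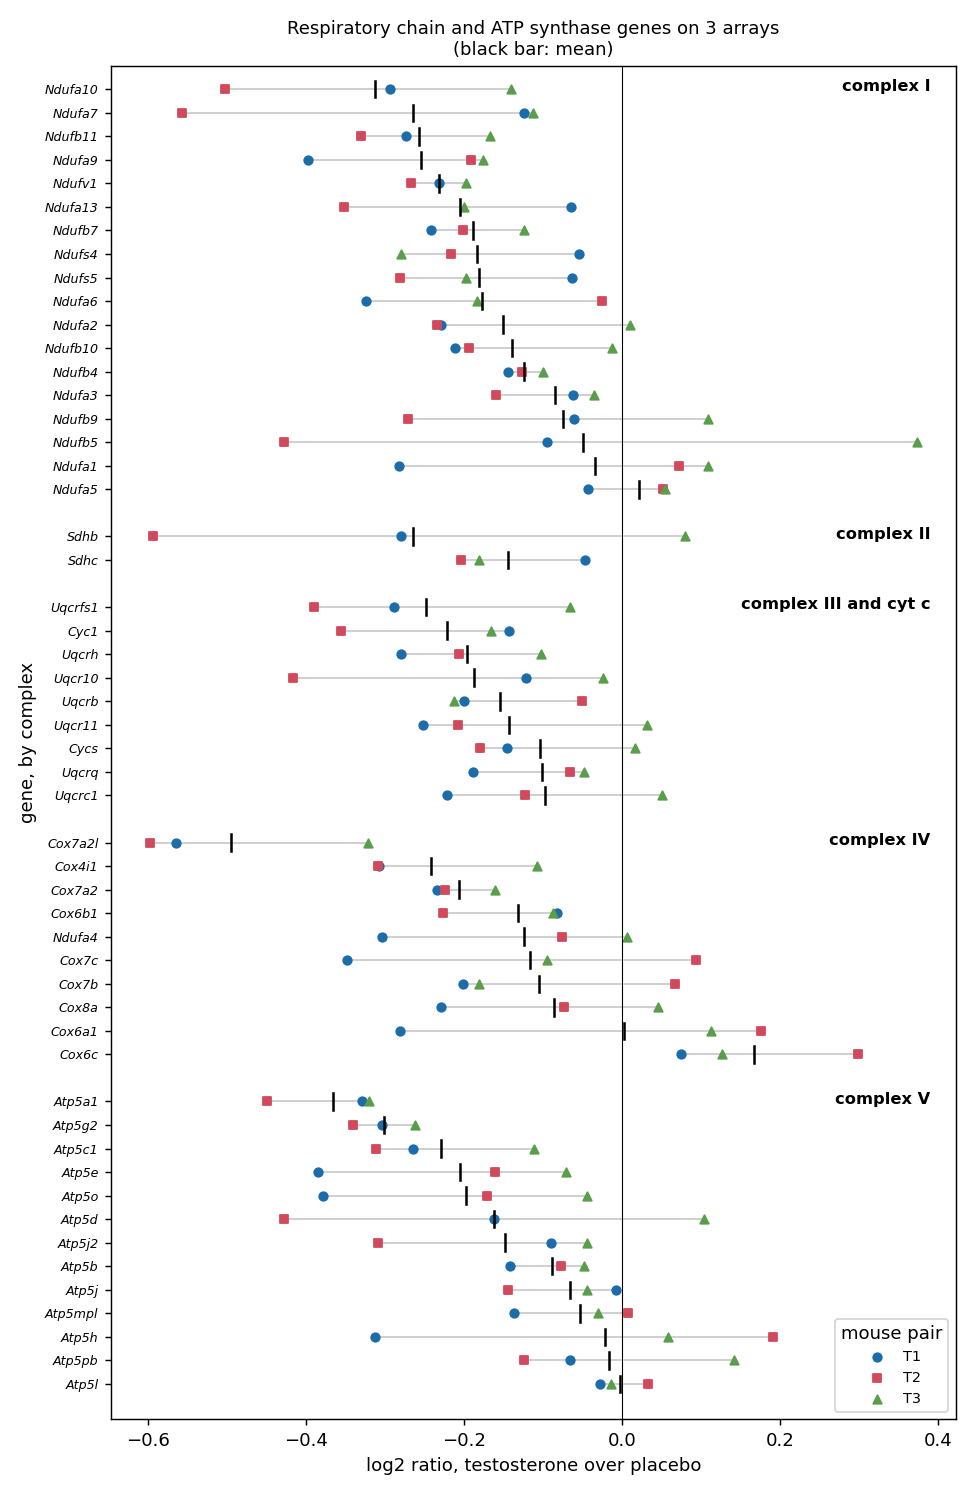
Log2 ratio of testosterone over placebo (x axis) for each of the 52 genes (rows, by complex), with the 3 mouse pairs as coloured markers and the mean as a black bar. Most means lie left of 0, Cox7a2l lies lowest at -0.49 and Cox6c highest at 0.17, and the T3 markers are most often the rightmost of a row (36 of 52 genes).

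Complex II, the succinate dehydrogenase shared with the citric acid cycle, was measured by 2 of its 4 genes. The iron-sulfur subunit Sdhb had -0.28 (T1), -0.59 (T2) and 0.080 (T3) (mean -0.26 ± 0.34, SD, n = 3, limma adjusted p = 0.246). The membrane anchor Sdhc had -0.047, -0.20 and -0.18 (mean -0.14 ± 0.08, adjusted p = 0.367). Sdhb changed sign between pairs and Sdhc did not, and with 2 genes the median of complex II (-0.16, -0.40 and -0.050) is only their midpoint.

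Complex III oxidises ubiquinol and reduces cytochrome c. All 9 measured genes, cytochrome c included, were below 0 on T1 (against 55.8% of all genes) and T2 (63.2%), and 6 of 9 on T3 (59.6%). The median was -0.20 (T1), -0.21 (T2) and -0.048 (T3) (mean -0.15 ± 0.09, SD, n = 3). Its difference from the median of all genes was -0.16 (T1), -0.090 (T2) and 0.0070 (T3). Uqcrfs1, the Rieske iron-sulfur protein, had -0.29, -0.39 and -0.066 (mean -0.25 ± 0.17, limma adjusted p = 0.178). Cyc1, the heme-carrying cytochrome c1, had -0.14, -0.36 and -0.17 (mean -0.22 ± 0.12, adjusted p = 0.198). Both electron carriers were thus lowest on T2.

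The hinge protein Uqcrh had a mean of -0.20 ± 0.09, the small subunit Uqcr10 -0.19 ± 0.20, Uqcrb, a subunit near the ubiquinone site, -0.15 ± 0.09, and the small subunit Uqcrq -0.10 ± 0.08 (SD, n = 3), and each of them was below 0 on all 3 arrays. The other 3 were below 0 on T1 and T2 and above it on T3. These were Uqcr11 (-0.14 ± 0.15), the core protein Uqcrc1 (-0.098 ± 0.14) and Cycs, the mobile carrier cytochrome c that also triggers apoptosis when released (-0.15, -0.18 and 0.016, mean -0.10 ± 0.10). No gene of complex III passed (limma), and 0 of 9 had an unadjusted p under 0.05, against 16.1% lower and 12.0% higher over all genes.

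Complex IV is cytochrome c oxidase, which reduces oxygen to water. On T1, 9 of its 10 genes were below 0 (against 55.8% of all genes), as were 6 on T2 (63.2%) and 6 on T3 (59.6%). On every array 4 were below 0, where 33.9% of all genes lay. The shares on T2 and T3 were thus near those of genes at large. The median was -0.26 (T1), -0.074 (T2) and -0.091 (T3) (mean -0.14 ± 0.10, SD, n = 3). Its difference from the median of all genes was -0.22 (T1), 0.042 (T2) and -0.036 (T3). Leaving out T1 brought the mean of the medians to -0.083. Cox7a2l alone passed (limma), 1 of 10 genes, against 3.24% lower over all genes. At an unadjusted p under 0.05, 2 of 10 were lower, against 16.1% of all genes.

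Besides Cox7a2l, the genes below 0 on every array were Cox4i1, Cox7a2 and Cox6b1. Cox4i1, the subunit through which ATP inhibits the enzyme, had -0.31 (T1), -0.31 (T2) and -0.11 (T3) (mean -0.24 ± 0.12, SD, n = 3, limma adjusted p = 0.170). Cox7a2, the widely expressed form of a small membrane subunit, had -0.23, -0.22 and -0.16 (mean -0.21 ± 0.04, adjusted p = 0.203). Cox6b1, which faces the intermembrane space, had -0.082, -0.23 and -0.087 (mean -0.13 ± 0.08). Cox7a2 had the steadiest values of the complex.

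Several small subunits had their lowest value on T1. Cox6a1, the widely expressed form of subunit 6a, had -0.28 (T1), 0.18 (T2) and 0.11 (T3) (mean 0.0023 ± 0.25, SD, n = 3). Cox7c had -0.35, 0.093 and -0.095, and Cox7b, an X-linked gene, -0.20, 0.067 and -0.18. Ndufa4 had -0.30, -0.076 and 0.0060, and Cox8a, the ubiquitous form of subunit 8, -0.23, -0.073 and 0.045. On T2 and T3 these genes had values of either sign.

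Cox6c was the exception in sign, with 0.075 (T1), 0.30 (T2) and 0.13 (T3) (mean 0.17 ± 0.12, SD, n = 3, 1.12-fold higher, limma adjusted p = 0.311). Its 2 spots carry different accessions and did not read alike. One had 0.44, 0.40 and 0.27 (spot-level limma adjusted p = 0.0713) and the other -0.29, 0.20 and -0.018 (adjusted p = 0.873). The gap on T1, 0.74, was the widest among the 15 members with exactly 2 spots, whose median gap there was 0.095. The direction of Cox6c therefore differs by spot.

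**Figure D3:**
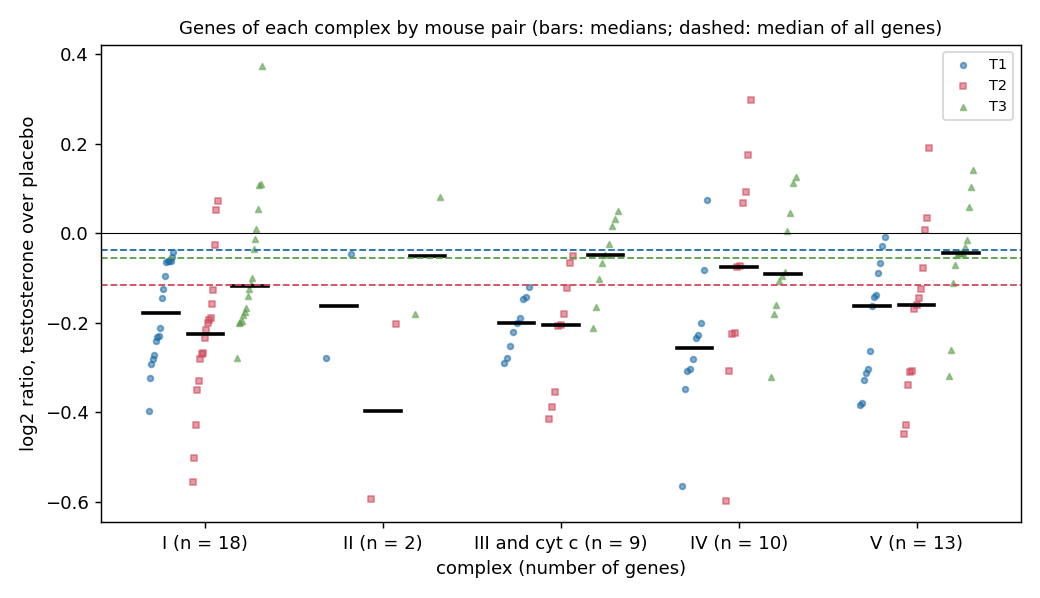
Log2 ratio of testosterone over placebo (y axis) of the genes of each complex (x axis, with the number of genes) on T1, T2 and T3, with a black bar at each median and dashed lines at the median of all genes on each array. The medians of complex I lie below the dashed line of their array on all 3 arrays, while those of complexes II, III and V meet it on T3 and that of complex IV lies above it on T2.

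Complex V, the ATP synthase, had all 13 measured genes below 0 on T1, as were 10 on T2 and 10 on T3, with 8 below 0 on every array, where 33.9% of all genes lay. Its median was -0.16 (T1), -0.16 (T2) and -0.044 (T3) (mean -0.12 ± 0.07, SD, n = 3). Its difference from the median of all genes was -0.12 (T1), -0.045 (T2) and 0.011 (T3). No gene of complex V passed (limma), and 2 of 13 (15.4%) were lower at an unadjusted p under 0.05, against 16.1% of all genes.

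The catalytic head and the membrane part had different medians. The 5 genes of the head (F1) had medians of -0.26, -0.31 and -0.071 on T1, T2 and T3, and the 8 genes of the membrane part and stalk -0.11, -0.13 and -0.038. From the median of all genes the head differed by -0.226, -0.195 and -0.016. The membrane part and stalk differed from it by -0.0755, -0.018 and 0.0175, so on T2 and T3 they were near genes at large. Below that median on all 3 arrays were 3 of 5 and 1 of 8 genes, against 23.7% of all genes. The difference between the 2 parts was not tested. In the head, the rotor gene Atp5c1 (gamma) had -0.26, -0.31 and -0.11 (mean -0.23 ± 0.10, SD, n = 3, limma adjusted p = 0.183) and Atp5e (epsilon) -0.38, -0.16 and -0.071 (mean -0.21 ± 0.16, adjusted p = 0.246). The catalytic beta subunit Atp5b stood nearer to 0 than its partner Atp5a1, with -0.14, -0.077 and -0.048 (mean -0.089 ± 0.048). Atp5d (delta) had -0.16, -0.43 and 0.10 and so differed in sign between pairs.

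In the membrane part and stalk, Atp5o, which couples the stalk to the head, had -0.38 (T1), -0.17 (T2) and -0.044 (T3) (mean -0.20 ± 0.17, SD, n = 3, limma adjusted p = 0.264). Atp5j2, subunit f, had a mean of -0.15 ± 0.14 and Atp5j, coupling factor 6, of -0.066 ± 0.070, both below 0 on all 3 arrays. The remaining 4 had means closer to 0. These were the small proteolipid Atp5mpl (-0.054), the stalk subunits Atp5h (-0.021) and Atp5pb (-0.016) and subunit g, Atp5l (-0.0032 ± 0.032). Atp5h varied most among them, with -0.31 (T1), 0.19 (T2) and 0.058 (T3), and Atp5l least.

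Gaps between spots of the same gene can reflect differences between the sequences spotted as well as measurement error, and these were not told apart. In only 2 members did both spots carry the same sequence. Over 365 genes with 2 spots of the same sequence, the median gap was 0.069 (T1), 0.12 (T2) and 0.11 (T3). Of 16 members with more than 1 spot, 9 had the same sign at all spots on every array. The other 7, Atp5l, Atp5pb, Cox6c, Cox8a, Ndufa1, Ndufa2 and Ndufb10, had spots of opposite sign on at least 1 array. In the 15 members with exactly 2 spots, the median gap between them was 0.095 (T1), 0.20 (T2) and 0.089 (T3), against 0.099, 0.18 and 0.14 over 685 genes with 2 spots. The gap on T2 was thus as wide as the median shift of the complexes on that array.

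**Figure D4:**
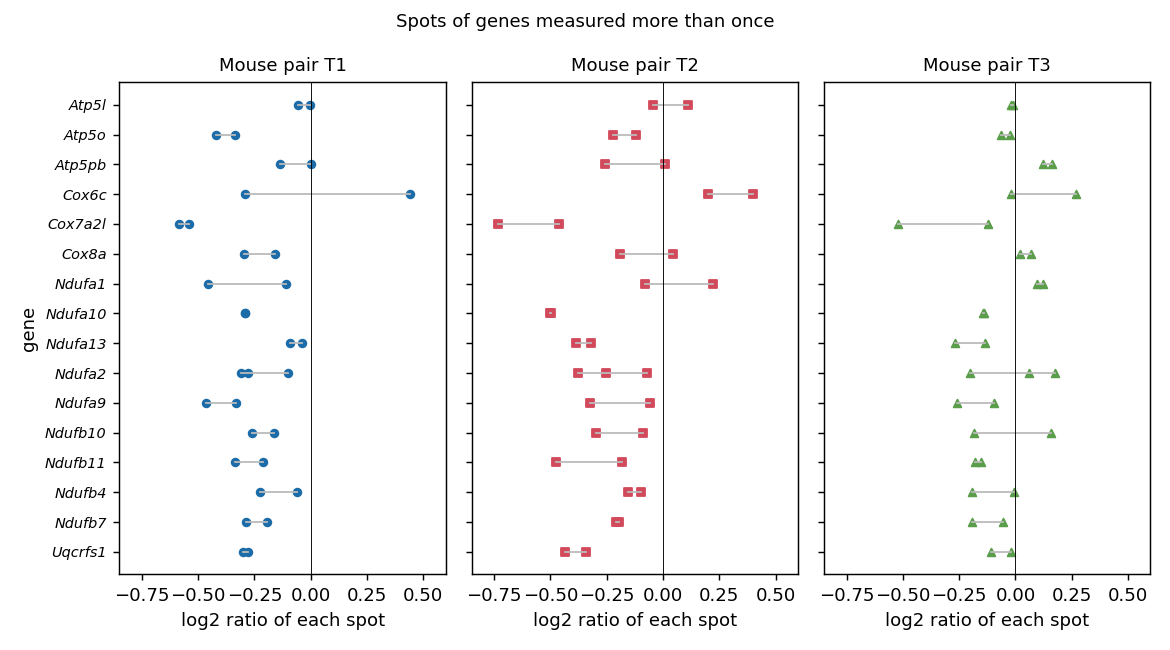
Log2 ratio of each spot (x axis) for the 16 members with more than 1 spot (rows), 1 panel for each mouse pair, with a line joining the spots of a gene. The spots of Ndufa10 coincide, those of Cox6c lie 0.74 apart on T1 and those of Cox7a2l 0.40 apart on T3.

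Other parts of energy metabolism were described from lists, and no gene in them passed (limma). At an unadjusted p under 0.05, 3 of 9 genes of the citric acid cycle list were lower and 1 higher, 1 of 9 assembly factors lower and 2 higher, 2 of 5 regulators, 1 of 6 carriers and 1 of 8 glycolytic genes lower, and 0 of 7 in fatty acid oxidation, against 16.1% lower and 12.0% higher over all genes. Of the 9 measured genes of the citric acid cycle and pyruvate dehydrogenase, 7 had means below 0, and the medians were -0.11 (T1), -0.39 (T2) and -0.16 (T3). Pyruvate dehydrogenase split by subunit, with Pdhb at 0.36, 0.63 and 0.38 (mean 0.45 ± 0.15, SD, n = 3, limma adjusted p = 0.0515) and its partner Pdha1 at -0.20, -0.39 and -0.41 (mean -0.33 ± 0.12, adjusted p = 0.0902). Neither passed, and their ratios had opposite signs on all 3 arrays. Without T1 both passed (limma adjusted p = 0.00943 for Pdhb and 0.0389 for Pdha1), in a fit that called 623 of 3462 genes. Neither passed without T2 (limma adjusted p = 0.234 for Pdhb and 0.288 for Pdha1) or without T3 (adjusted p = 0.273 and 0.385).

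The 9 measured of 37 assembly factors with other symbols had medians of -0.10, 0.080 and 0.049 on T1, T2 and T3, 0 of 9 passed and 4 of 9 had a mean below 0. Sco1, a copper chaperone of complex IV, had 0.44, 0.66 and 0.18 (mean 0.43 ± 0.24, SD, n = 3, limma adjusted p = 0.0746). It passed without T1 (limma adjusted p = 0.0385), but not without T2 (adjusted p = 0.295) or without T3 (adjusted p = 0.273). Coa3, another complex IV assembly factor, had -0.20, -0.29 and -0.35 (mean -0.28 ± 0.08, adjusted p = 0.119). Means of both signs thus stood among the factors.

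Of 6 carriers, porins and related genes, 5 had means below 0 (medians -0.070, -0.31 and -0.14), among them the ADP/ATP carrier Slc25a5 (-0.23 ± 0.06, SD, n = 3, limma adjusted p = 0.175) and the phosphate carrier Slc25a3 (-0.22 ± 0.16, adjusted p = 0.230). The inhibitor of the ATP synthase, Atpif1, was above 0 on all 3 arrays (0.15 ± 0.16, adjusted p = 0.370). Among 5 regulators of mitochondrial genes, Gabpa, the DNA-binding subunit of the factor that reads the ETS core, had -0.34 ± 0.17 (adjusted p = 0.0965) and its partner Gabpb1 -0.29 ± 0.05 (adjusted p = 0.114), both below 0 on all 3 arrays and neither passing. Gabpa passed without T1 (limma adjusted p = 0.0252), but not without T2 (adjusted p = 0.335) or without T3 (adjusted p = 0.369). Electron transfer flavoprotein and coenzyme Q synthesis were measured by Etfa (-0.077 ± 0.088, adjusted p = 0.631) and Pdss2 (-0.15 ± 0.43, adjusted p = 0.567).

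Glycolysis and fatty acid oxidation had no median below 0 on T1. The 8 glycolytic genes had medians of 0.11 (T1), -0.49 (T2) and -0.12 (T3), and 0 of 8 passed, with the muscle-type enolase Eno3 (-0.35 ± 0.39, SD, n = 3, limma adjusted p = 0.171) and the isomerase Tpi1 (-0.26 ± 0.27, adjusted p = 0.220) having the smallest p. Eno3 passed without T1 (limma adjusted p = 0.0114), but not without T2 (adjusted p = 0.558) or without T3 (adjusted p = 0.376). The 7 genes of fatty acid oxidation had 0.029, -0.19 and 0.099, and 0 of 7 passed, with Acadm (-0.21 ± 0.27, adjusted p = 0.288) and Echs1 (-0.16 ± 0.23, adjusted p = 0.386) foremost. On T1, where the complexes were lowest against genes at large, both lists had medians above 0.

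Families of translation and protein turnover were set beside the complexes, chosen after the data were seen. The 43 cytosolic ribosomal protein genes had medians of -0.34 (T1), -0.064 (T2) and -0.039 (T3), below the median of all genes on T1 and above it on T2 and T3. The 25 mitochondrial ribosomal protein genes had -0.15, -0.23 and -0.11, and the 34 proteasome genes -0.14, -0.28 and -0.13, below it on all 3 arrays. Of the 3 families, the cytosolic ribosomal genes alone had their lowest median on T1.

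**Figure D5:**
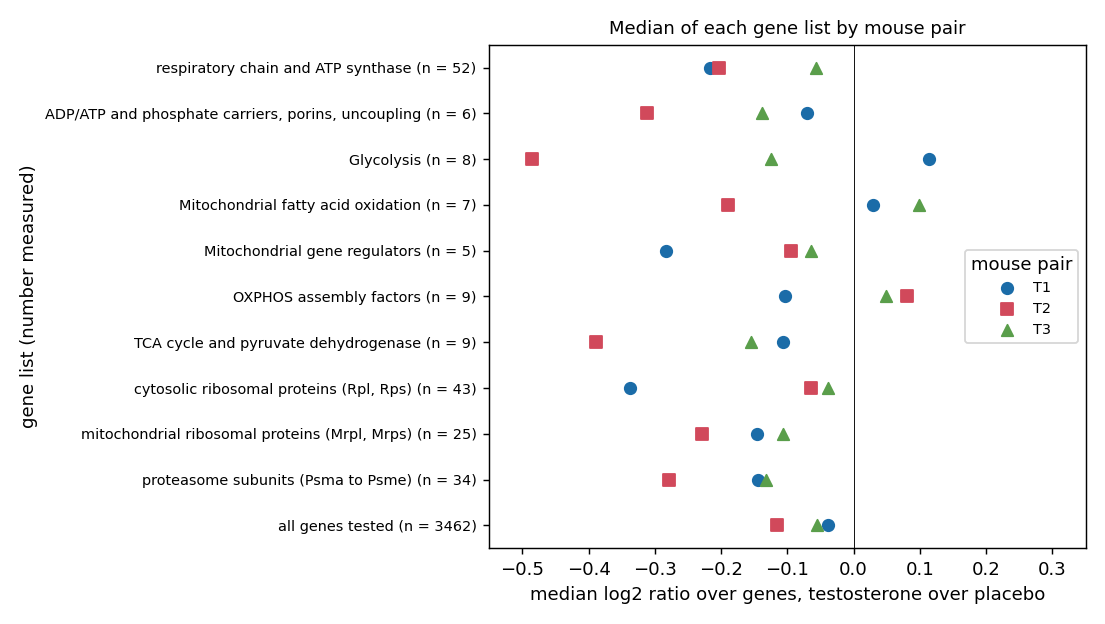
Median log2 ratio of testosterone over placebo (x axis) of the lists of energy metabolism and the other gene families with at least 5 measured genes (rows, with the number measured) on T1, T2 and T3. The complexes lie at -0.22, -0.20 and -0.057, and cytosolic ribosomal proteins share the low position on T1 (-0.34) but not on T2 (-0.064).

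Markers of other cell types were measured in the same comparison, and their part in the ratios of the complexes was not tested. Of 18 B-lineage markers 8 were measured and 7 were lower (against 3.24% of all genes), with medians of -2.27 (T1), -2.29 (T2) and -1.81 (T3). Erythroid markers had medians of 0.11, 0.38 and 0.32 over 7 of 20 genes, and monocyte and macrophage markers 0.20, 0.21 and 0.13 over 7 of 11 genes, with 0 passing in either list (limma) and 3 of each higher at an unadjusted p under 0.05, against 12.0% of all genes. Neutrophil markers differed between pairs, with 0.60, 0.11 and -0.15 over 5 of 16 genes, and were highest on T1, where the complexes were lowest against genes at large. Skeletal muscle markers, from a tissue rich in these complexes, had -0.032, -0.82 and -0.41 over 7 of 19 genes, 0 passing and 5 lower at an unadjusted p under 0.05 (limma; 16.1% of all genes), and were near 0 on T1. Adipocyte and osteoblast markers were measured by 3 of 8 and 3 of 9 genes, with medians of -0.30, -0.44 and -0.54 for adipocytes, of which Scd1 was lower (but not without T2, limma adjusted p = 0.0843), and of 0.42, -1.11 and -0.16 for osteoblasts.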

How the data were processed

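RNA of bone marrow was compared within 3 mouse pairs on two-colour arrays. The deposited values are log2 ratios, 1 per spot and array; the log2 base was inferred, and the numerator, scanner, background correction and normalization were not given in the sources used here. The spots were split by their number into 32 consecutive runs, taken as print blocks, a layout that was assumed. The deposited values had a mean near 0 in each run (the largest was 0.054, on T3) and were used as they stand. Each ratio is thus relative to the average spot of its run. The sign of T2, the array of opposite dyes, was kept. Of 11552 spots, T1 had a value for 78.0%, T2 for 58.6% and T3 for 60.4%, and missing values can depend on brightness, which was not analysed here.

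The platform annotation named 1 gene for 8050 spots, of which 7880 matched the RefSeq table of GRCm38.p6 by Entrez ID. The 4554 of these with a value on all 3 arrays were averaged to 3462 genes, of which 854 had more than 1 spot. The mean of each gene was tested against 0 by a two-sided moderated test (limma 3.58.1, run in R 4.3.3), and p-values were adjusted by Benjamini-Hochberg over all 3462 genes, with a threshold of 0.05. All adjusted p-values come from this test or its named alternatives. The test was checked on simulated data of 3462 genes, with 50 changed at each size. The noise was independent and normal, with each gene's SD over the 3 arrays as its true spread. There the test called 2.0% of genes changed by 0.25, 42.0% at 0.5 and 80.0% at 1.0. Changes as small as those of most members were thus rarely called in that setting. The rates need not hold for these data, where 972 of 3462 genes had an unadjusted p under 0.05 (limma). Precision is limited by the number of arrays, and the 95% interval of a gene reached 0.25 (median) to either side. The p-values set the mean of a gene against its spread between these 3 pairs, moderated towards a variance shared by all genes. For a gene with a narrow spread the moderated standard error is larger than its own values give. For Atp5g2 it was 0.096, larger even than the SD over arrays of 0.039, and a standard error from the values alone is smaller than that SD.

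The members, lists and motifs were chosen with earlier results of these data known. Named are the called members, in each complex the 6 of smallest p, the highest and lowest mean and the 2 widest spreads, the members with several spots, the other members with their means, and, for each list of energy metabolism, its 2 smallest p. Atpif1, Scd1 and the values by array of Atp5b, Cox7b, Cox8a, Cycs and Ndufb9 were added after their values were seen. Alternatives were the sign of T2 turned, each array left out, a dye term, centring, scaling, other spot rules, single spots, robust eBayes, a threshold of 0.10, Ndufa4 in complex I and means for medians, and, chosen after seeing the data, complex IV without Cox6c.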

Additional observations from a re-analysis of the deposited data

How the results depend on the processing

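All 52 genes of the complexes and 16 other named genes were recomputed. Turning the sign of T2 sets it against T1 and T3, with which it correlated positively over all genes as deposited. With the sign of T2 turned, 0 genes of the complexes were lower, 4 of 52 were below 0 on all 3 arrays (against 6.44% of all genes), and the medians were -0.024 for complex I, 0.062 for complex II, -0.014 for complex III and -0.015 for complex V, while that of complex IV was -0.091. The means that changed sign then, 21 of the 52 and 7 of the 16, were those of Acadm (0.080), Atp5d (0.12), Atp5j (0.030), Atp5j2 (0.058), Atp5pb (0.067), Atpif1 (-0.072), Cox6a1 (-0.11), Cox6b1 (0.019), Cox6c (-0.032), Cyc1 (0.016), Cycs (0.017), Eno3 (0.17), Etfa (0.041), Ndufa10 (0.022), Ndufa13 (0.029), Ndufa2 (0.0051), Ndufa3 (0.021), Ndufa5 (-0.014), Ndufa7 (0.11), Ndufb5 (0.24), Ndufb9 (0.11), Ndufs5 (0.0067), Sco1 (-0.016), Sdhb (0.13), Slc25a3 (0.047), Tpi1 (0.12), Uqcr10 (0.090), Uqcrfs1 (0.011). After median centring 0 genes were lower, and the medians of complexes I and V were -0.10 and -0.053 (-0.10 and -0.052 with scaling). Centring changed the sign of 7 of the 52 means, Atp5h (0.048), Atp5j (0.0040), Atp5l (0.067), Atp5mpl (0.016), Atp5pb (0.053), Ndufa1 (0.036), Ndufb5 (0.020), and with scaling of 8, Atp5h (0.026), Atp5j (0.0075), Atp5l (0.058), Atp5mpl (0.0059), Atp5pb (0.066), Ndufa1 (0.026), Ndufb5 (0.069), Ndufb9 (0.016). With a dye term Atp5h (0.032), Atp5l (0.0059) changed sign. A threshold of 0.10 gave 3 lower genes, Cox7a2l, Atp5a1 and Atp5g2. Leaving out 1 array at a time gave 0 to 2 lower genes (2 without T1, 0 without T2 and 0 without T3), and 32 to 43 genes below 0 on both remaining arrays, against 48.3% of all genes without T1, 40.4% without T2 and 42.1% without T3. The complex medians then ranged over -0.20 to -0.15 for complex I, -0.28 to -0.11 for II, -0.20 to -0.12 for III, -0.17 to -0.083 for IV and -0.16 to -0.10 for V. The means that crossed 0 in at least 1 of these 3 fits, with their ranges, were Atp5h (-0.13 to 0.12), Atp5l (-0.021 to 0.0092), Atp5pb (-0.096 to 0.038), Cox6a1 (-0.084 to 0.14), Ndufa1 (-0.11 to 0.090), Ndufb5 (-0.26 to 0.14), Ndufb9 (-0.17 to 0.024) and Pdss2 (-0.39 to 0.011). Among the 16 other genes, Pdhb and Sco1 passed with a dye term and with centring and scaling, and Eno3 with a dye term. Under the settings that averaged spots in another way, admitted genes with missing values or used robust eBayes, each of the 68 genes kept its direction and its side of the threshold. Over all genes, 170 were called in the setting reported, 385 with a dye term, 100 median centred, 310 centred and scaled, 498 at 0.10, 623 without T1, 35 without T2, 33 without T3 and 0 of 3462 with T2 turned (limma), where 19 had an unadjusted p under 0.05. The cause of these differences was not tested. No paired analysis was possible because no values of single mice were used to which a block could be added; the test reported is itself one of ratios within mouse pairs.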

Other observations

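Spots annotated with several genes were not used for the complexes. Of 11 such spots that list a member, 4 had a value on all 3 arrays. A spot listing Atp5a1 with 3 other genes read 0.28 (T1), 0.83 (T2) and 0.37 (T3), where the Atp5a1 spot of its own read -0.33, -0.45 and -0.32. The 2 spots listing Sdhc with Pcp4l1 read 0.16, 0.58 and 0.21, and -0.046, 0.37 and 0.22, where Sdhc itself read -0.047, -0.20 and -0.18. A spot listing Cox8c with Btbd7 and Unc79 read 0.22, 0.73 and 0.45. Which listed gene these spots measure was not tested.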
